A study of Homo sapiens with 8 samples.

Results

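The genes described here are the axon guidance ligands and receptors of BT474 cells: the semaphorins, their plexin and neuropilin receptors, the SLIT and ROBO pair, netrins with DCC, NEO1 and UNC5, and the ephrins with their Eph receptors. Members were taken by symbol from the count table of the whole series, which gave 72 of its 26475 genes. BT474 is a long-established line from a human breast carcinoma, and it carries ERBB2 amplification. RNA was sequenced from 4 libraries labelled NPY1R high and 4 labelled NPY1R low, where NPY1R encodes the neuropeptide Y receptor Y1. All 8 libraries came from this single line, seeded below confluence in plates, and the labels record no drug for them. How the cells were separated by NPY1R, and whether the 4 replicates of a group were separate cultures, is not given in the sources used here, so p-values measure only the spread between these libraries.

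Guidance molecules were named for steering growing axons, and they also act between epithelial cells, where they control adhesion, migration and the shape of ducts. Semaphorins signal through plexins, and most of the secreted class 3 members need a neuropilin as co-receptor. SLIT proteins are secreted ligands of ROBO receptors, and in the breast this pair is known for a part in duct branching. Ephrins are held on the membrane, by a lipid anchor in the A class and by a transmembrane segment in the B class, and they bind Eph receptor tyrosine kinases on a neighbouring cell, with signals passing into both cells.

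Of the 72 guidance genes, 16 were higher and 1 was lower in NPY1R high at a Benjamini-Hochberg adjusted p under 0.05, by edgeR's quasi-likelihood test fitted on all genes. The rises lay in EphA receptors (EPHA3, EPHA4, EPHA6, EPHA7 and EPHA8), in ROBO1, ROBO2 and SLIT3, in the ephrins EFNA1, EFNA5 and EFNB3, in NRP1 and PLXNA4, in the semaphorins SEMA5A and SEMA6A, and in NTN4. The gene that fell was UNC5A. ROBO2 had the largest change, 12.1-fold, and EPHA6 and EPHA3 followed at 4.98-fold and 4.38-fold. Of the 14008 genes tested in the whole table, 5.78% were higher and 7.81% lower by the same rule, 13.6% in all. At least a 2-fold rise was found for 12 members, and 1.86% of all tested genes met that rule (1.33% for a fall of at least 2-fold). The CPM of the 2 groups did not overlap for 16 members in the direction of a rise and for 1 in that of a fall, against 8.77% and 11.4% of all tested genes, 20.2% in all. The median log2 change was 0.13 over the 57 members tested and -0.03 over all tested genes.

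The 57 were the members that passed the filter on low counts, which asks for about 0.374 CPM (counts scaled to a library of 1000000 counts) in at least 4 libraries. Of these, 47 were past that level in every library, 12 of them called higher. Another 6 passed through the NPY1R high libraries alone (EFNB3, EPHA8, NRP2, ROBO2, SEMA6D and SLIT3). UNC5A passed through the NPY1R low libraries alone. Thus 5 of the 17 called members entered the test because 1 group was high. EFNB3, EPHA8, ROBO2 and SLIT3 are also among the 12 members with at least a 2-fold rise and the 16 without overlap. Both of those counts thus include members that could be tested only by being high in NPY1R high. The 15 members not tested were DCC, EPHA5, NTN3, NTN5, NTNG1, NTNG2, ROBO3, ROBO4, SEMA3A, SEMA3D, SEMA3G, SEMA5B, SEMA6B, UNC5C and UNC5D. ROBO4, SEMA3A and UNC5D had 0 counts in all 8 libraries, which allows up to 3 counts in each. No untested member passed 19 counts in any library, the value of UNC5C in NPY1R high replicate 1, and UNC5C had 19, 15, 5 and 6 counts in NPY1R high against 1, 6, 1 and 0 in NPY1R low.

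NPY1R itself followed the labels, with a mean of 856.5 ± 170.4 CPM over the NPY1R high libraries and 95.5 ± 5.65 CPM over the NPY1R low ones (± SD, n = 4 each, as for all means given so). Libraries held 18025648 to 30609791 counts. The 9 luminal epithelial markers summed to 7448 to 8538 CPM in NPY1R high and 7350 to 9577 CPM in NPY1R low. Of these, GATA3 and ESR1 were called higher and EPCAM and FOXA1 lower. Fibroblast markers summed to 10.9 to 17.5 and 10.4 to 17.6 CPM, with COL1A2, DCN and PDGFRB at 0 counts. Endothelial markers summed to 9.26 to 15.6 and 13.5 to 18.3 CPM, with TEK at 0, basal or myoepithelial markers to 8.07 to 11.7 and 7.39 to 10.4 CPM, with KRT14 and CNN1 at 0, and immune markers to 1.43 to 2.27 and 1.69 to 2.77 CPM, with CD3E at 0. Neural and Schwann markers summed to 102.7 to 147.3 and 68.3 to 165.1 CPM, nearly all of it TUBB3, and S100B was at 0. None of the 7 tested markers of these 5 other cell types passed the threshold. As 13.6% of all tested genes were called in either direction, 0 of 7 is near that share. In bulk RNA, more cells that use a gene and more of its RNA per cell cannot be told apart.

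**Figure D1:**
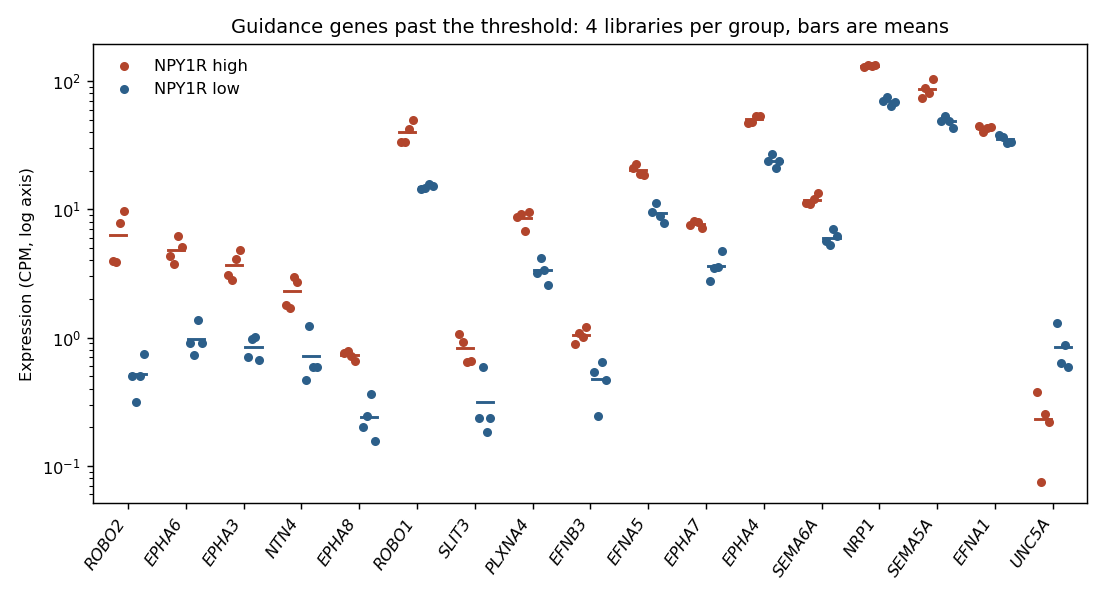
Expression of the 17 guidance genes past the threshold, in CPM on a log axis, with 1 point per library and a bar at each group mean (4 NPY1R high and 4 NPY1R low libraries). The points of the 2 groups do not overlap for any of the 17 genes, and ROBO2 stands furthest apart.

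Promoter sequences are shown for the 3 called members with the largest change at a mean of at least 5 CPM (ROBO1, PLXNA4 and EFNA5), for ROBO2, which had the largest change of all members, and for EPHA4, whose promoter held a match to a steroid receptor element. ROBO2 and EPHA4 were picked after their values and motifs were seen. The RefSeq starts used for ROBO2 and PLXNA4 lie 404.2 and 72.2 kilobases inside the genes as annotated in GENCODE 29, at an internal start, and which start these cells use was not tested. Each line gives the 250 bases before the RefSeq start (GRCh38.p14), read 5′ to 3′ on the strand of the gene. Capitals mark matches to any of 4 motifs, each searched on both strands: the estrogen response element (GGTCA, any 3 bases, TGACC), the progesterone or androgen response element (GNACA, any 3 bases, TGTNC), the GC box GGGCGG and the TATA box TATAAA.
ROBO1 (chr3:79767999-79768248, reverse strand): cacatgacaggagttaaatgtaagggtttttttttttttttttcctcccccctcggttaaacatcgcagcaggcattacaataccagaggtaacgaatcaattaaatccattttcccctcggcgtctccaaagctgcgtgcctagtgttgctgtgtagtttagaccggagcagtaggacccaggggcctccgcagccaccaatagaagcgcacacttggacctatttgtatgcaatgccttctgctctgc
ROBO2 (chr3:76310630-76310879, forward strand): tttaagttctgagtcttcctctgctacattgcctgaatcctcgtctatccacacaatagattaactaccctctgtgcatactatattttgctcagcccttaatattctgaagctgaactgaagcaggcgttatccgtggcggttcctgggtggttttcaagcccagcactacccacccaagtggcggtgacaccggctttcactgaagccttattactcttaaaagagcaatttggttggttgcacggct
PLXNA4 (chr7:132576471-132576720, reverse strand): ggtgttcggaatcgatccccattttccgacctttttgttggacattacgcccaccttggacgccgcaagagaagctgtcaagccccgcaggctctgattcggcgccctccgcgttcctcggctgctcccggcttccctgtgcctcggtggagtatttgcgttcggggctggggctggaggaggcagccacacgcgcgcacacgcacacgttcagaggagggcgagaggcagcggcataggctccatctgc
EFNA5 (chr5:107670938-107671187, reverse strand): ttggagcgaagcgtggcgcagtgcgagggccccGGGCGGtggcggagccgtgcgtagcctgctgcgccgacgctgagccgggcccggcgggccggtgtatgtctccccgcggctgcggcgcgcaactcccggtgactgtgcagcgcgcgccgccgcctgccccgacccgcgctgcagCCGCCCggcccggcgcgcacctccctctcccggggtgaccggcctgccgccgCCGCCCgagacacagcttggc
EPHA4 (chr2:221574203-221574452, reverse strand): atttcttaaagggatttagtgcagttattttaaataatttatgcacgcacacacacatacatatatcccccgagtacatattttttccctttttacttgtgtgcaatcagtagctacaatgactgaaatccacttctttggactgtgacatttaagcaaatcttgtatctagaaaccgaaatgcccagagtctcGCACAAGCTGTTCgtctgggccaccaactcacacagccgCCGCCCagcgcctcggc

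The promoters differ in composition. GC content was 48.0% in the ROBO1 stretch and 46.8% in that of ROBO2, neither with a match to any of the 4 motifs, and 79.6% in that of EFNA5, which held 3 GC boxes. The PLXNA4 stretch was at 63.6% with no match. The EPHA4 stretch, at 43.2%, held the steroid element and 1 GC box. In the 300-base promoters, which run 50 bases past the start, 61 members had a RefSeq entry, and 75.4% of them held a GC box against 44.6% of all 27305 promoters in the table. Among the 16 members that rose, 13 had an entry (all but EFNB3, NRP1 and SEMA6A), 8 of the 13 held a GC box, 0 held an estrogen response element and 1, EPHA4, held the progesterone or androgen element. In all promoters those 2 elements were found in 0.0659% and 0.388%. A TATA box was found in 12% of all promoters and in 1 of the 61, and in 0 of the 13. A match describes letters only, and no match says nothing of a factor's binding elsewhere.

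ROBO1 and ROBO2, the receptors of SLIT ligands, both rose. ROBO2 (chr3:75906695-77649964, GENCODE 29 on GRCh38) had 3.95, 3.87, 7.85 and 9.64 CPM in NPY1R high replicates 1 to 4 and 0.503, 0.315, 0.503 and 0.746 CPM in NPY1R low replicates 1 to 4. Every NPY1R high library was at least 5 times above the highest NPY1R low library, and within NPY1R high replicates 3 and 4 were higher than replicates 1 and 2. The log2 fold change of ROBO2 was 3.60 (SE 0.39, edgeR adjusted p 0.000239). ROBO1 (chr3:78597240-79767815), the more abundant receptor, had 33.4, 33.8, 42.5 and 49.999 CPM in NPY1R high and 14.5, 14.6, 15.8 and 15.1 CPM in NPY1R low. Its NPY1R low libraries lay close together, and its log2 fold change was 1.41 (SE 0.13, edgeR adjusted p 9.02e-05). Per kilobase of transcript, ROBO1 was at 5.32 CPM and ROBO2 at 0.707 CPM in NPY1R high.

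The SLIT ligands were scarce in the same cells, though SLIT1 and SLIT2 were above ROBO2 in NPY1R low (ROBO2 mean 0.517 CPM). SLIT3 had 31, 25, 18 and 12 counts in NPY1R high and 7, 17, 4 and 6 in NPY1R low, or 0.827 ± 0.205 against 0.312 ± 0.190 CPM (SD, n = 4 each). The groups did not overlap in CPM, and the log2 fold change was 1.38 (SE 0.38, edgeR adjusted p 0.0377). Leaving out 1 library at a time lost that call in 6 of 8 fits, all but those without NPY1R high replicate 3 and without NPY1R low replicate 2, with edgeR adjusted p up to 0.109. SLIT2 was at 2.96 ± 0.867 and 1.99 ± 0.377 CPM (log2 0.57, 95% interval 0.05 to 1.09, edgeR adjusted p 0.153). SLIT1 was at 1.94 ± 0.913 and 2.30 ± 0.645 CPM (log2 -0.24, 95% interval -0.97 to 0.50), and neither passed the threshold.

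Of the Eph receptor tyrosine kinases, those called in this fit were all in the A class. Of 9 EphA receptors, 8 were tested and 5 rose, each by at least 2-fold. EPHA8, 1 of the 5, entered the test through the NPY1R high libraries alone. Over all tested genes 5.78% rose, and 1.86% rose by at least 2-fold. Of the 5 EphB receptors 0 passed by edgeR, DESeq2 or limma, 1 of them (EPHB6) with an unadjusted edgeR p under 0.05. As edgeR called 13.6% of all tested genes in either direction, 0 of 5 is near that share. The difference between the classes was not tested. EPHA6 (chr3:96814581-97752460) had 4.36, 3.72, 6.15 and 5.12 CPM in NPY1R high and 0.906, 0.736, 1.37 and 0.903 CPM in NPY1R low. Its lowest NPY1R high library stood well above its highest NPY1R low library, with a log2 fold change of 2.32 (SE 0.23, edgeR adjusted p 0.000151). EPHA3 (chr3:89107524-89482134) had 3.06, 2.83, 4.09 and 4.85 CPM in NPY1R high and 0.705, 0.981, 1.01 and 0.668 CPM in NPY1R low. Its log2 fold change was 2.13 (SE 0.24, edgeR adjusted p 0.000279), and the groups did not overlap.

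EPHA4, a receptor that binds ephrins of both the A and the B class, was the most abundant EphA receptor by CPM. It had 47.1, 47.8, 53.4 and 53.1 CPM in NPY1R high and 23.96, 26.8, 21.2 and 23.8 CPM in NPY1R low (chr2:221418027-221574202). Libraries of a group lay within a few CPM of each other, and the log2 fold change was 1.07 (SE 0.09, edgeR adjusted p 3.52e-05). EPHA7 (chr6:93240020-93419547) had 7.59, 8.14, 7.997 and 7.16 CPM in NPY1R high and 2.75, 3.50, 3.52 and 4.71 CPM in NPY1R low, a log2 change of 1.10 (SE 0.16, edgeR adjusted p 0.00145). EPHA8 (chr1:22563564-22603594) was near the limit of detection, with 22, 21, 20 and 12 counts in NPY1R high and 6, 7, 8 and 4 in NPY1R low, and rose by a log2 of 1.605 (SE 0.29, edgeR adjusted p 0.00438).

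The other 3 tested EphA receptors did not pass. EPHA1 was at 26.5 ± 2.08 against 28.2 ± 3.35 CPM, with a 95% interval of the log2 change from -0.31 to 0.14. EPHA2, a receptor for EFNA1 often abundant in epithelial tumours, was at 9.66 ± 1.84 and 10.9 ± 3.63 CPM, with an interval from -0.72 to 0.36. EPHA10 had a log2 change of 0.61 and an edgeR adjusted p of 0.0987.

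EPHB4, the receptor of EFNB2, was the most abundant Eph receptor by CPM. It had 103.1, 89.5, 78.7 and 98.1 CPM in NPY1R high and 119.3, 120.8, 105.9 and 84.6 CPM in NPY1R low. The groups overlapped, and the log2 change was -0.22 (95% interval -0.49 to 0.05, edgeR adjusted p 0.288). EPHB3 was at 53.9 ± 8.73 and 64.2 ± 15.2 CPM (log2 -0.25, edgeR adjusted p 0.425) and EPHB6, which lacks kinase activity, at 2.33 ± 0.428 and 3.75 ± 1.13 CPM (log2 -0.69, edgeR adjusted p 0.097). NPY1R low replicate 4 was the lowest NPY1R low library for EPHB3, EPHB4 and EPHB6. It was also the library with the steepest trend on GC content, in which genes of 60% GC read 0.45 lower on the log2 scale than genes of 40% GC, relative to the mean of all libraries.

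With each library's GC trend removed, a correction added after the data were seen, EPHB3, EPHB4 and EPHB6 passed the threshold as lower. Their log2 changes were then -0.21, -0.19 and -0.63, with edgeR adjusted p of 0.0213, 0.0434 and 0.0118. The same correction called EPHA10 and NRP2 higher and SEMA3E and SEMA4B lower. It kept all 17 calls, gave 18 members higher and 6 lower, and over the whole table called 8.17% of genes higher and 12.8% lower, 21% in all. A block for replicate number gave 18 members higher and 2 lower, where 5.75% and 7.34% of all genes were called (13.1% in all). Fitting replicates 1 and 2 apart from 3 and 4, by a term in the model, gave 18 and 5, where 8.6% and 12% of all genes were called (20.6% in all).

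Among the ephrins, EFNA5 changed most of those with over 1 CPM in every library. EFNA5 (chr5:107376889-107670895), a lipid-anchored ligand of EphA receptors, had 20.9, 22.6, 18.7 and 18.5 CPM in NPY1R high and 9.56, 11.1, 8.88 and 7.82 CPM in NPY1R low. All NPY1R high libraries were above all NPY1R low ones, and the log2 fold change was 1.11 (SE 0.12, edgeR adjusted p 0.000282). EFNA1 (chr1:155127460-155134857), the ephrin with the highest level per kilobase, had 44.6, 40.2, 43.2 and 43.8 CPM in NPY1R high and 37.6, 36.8, 32.8 and 33.6 CPM in NPY1R low. The gap between the groups was narrow, a log2 change of 0.29 (SE 0.07, edgeR adjusted p 0.0225), and the call was lost without NPY1R high replicate 1 (0.0717) or NPY1R low replicate 3 (0.0715). EFNA3 and EFNA4, which lie beside EFNA1 on chromosome 1, had log2 changes of -0.17 (95% interval -0.40 to 0.06) and -0.06 (95% interval -0.28 to 0.16) and did not pass.

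EFNB3, a transmembrane ephrin (chr17:7705202-7711378), had 26, 29, 28 and 22 counts in NPY1R high and 16, 7, 14 and 12 in NPY1R low. Its CPM did not overlap between the groups, with a log2 change of 1.15 (SE 0.28, edgeR adjusted p 0.0236), and the call was lost without NPY1R high replicate 2, 3 or 4 (edgeR adjusted p 0.0543 to 0.0643). EFNB2 was the most abundant ephrin by CPM, with 49.7, 52.4, 36.8 and 41.8 CPM in NPY1R high and 39.7, 44.4, 32.8 and 32.2 CPM in NPY1R low. These ranges overlapped, and EFNB2 did not pass (log2 0.28, 95% interval -0.03 to 0.58, edgeR adjusted p 0.236). Replicates 1 and 2 of EFNB2 were higher than replicates 3 and 4 in both groups, and with a term for that division its edgeR adjusted p was 0.0118 at the same log2 change of 0.28. EFNB1 was at 2.16 ± 0.546 and 2.67 ± 0.459 CPM and did not pass.

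NRP1, a co-receptor for class 3 semaphorins and also for VEGFA, had the smallest p-value of the members. It lies at chr10:33177492-33336262. NRP1 had 129.6, 132.9, 131.2 and 133.8 CPM in NPY1R high and 70.4, 75.0, 63.8 and 68.7 CPM in NPY1R low. The NPY1R high libraries were within 5 CPM of each other, and the log2 fold change was 0.92 (SE 0.06, edgeR adjusted p 8.06e-06), a 1.90-fold difference. NRP2, the other neuropilin, was far lower, at 0.882 ± 0.377 and 0.365 ± 0.158 CPM, with a log2 change of 1.25 that did not pass (edgeR adjusted p 0.0664).

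Of the 9 plexins, all tested, PLXNA4 alone passed the threshold in this fit. This share, 11.1%, is near the 13.6% of all tested genes called in either direction. PLXNA4 (chr7:132123332-132648688), a receptor for SEMA6A and, with neuropilins, for class 3 semaphorins, had 8.76, 9.15, 6.84 and 9.53 CPM in NPY1R high and 3.19, 4.20, 3.39 and 2.59 CPM in NPY1R low. The lowest NPY1R high library was well above the highest NPY1R low one, with a log2 change of 1.35 (SE 0.17, edgeR adjusted p 0.000568). PLXNB2 was the most abundant plexin by CPM, with 120.2, 97.0, 59.0 and 101.8 CPM in NPY1R high and 130.5, 138.3, 96.7 and 57.9 CPM in NPY1R low. NPY1R high replicate 3 and NPY1R low replicate 4 were the lowest in their groups, and these were the 2 libraries in which GC-rich genes read lowest. The log2 change of PLXNB2 was -0.17 with a wide 95% interval from -0.78 to 0.45 (edgeR adjusted p 0.78). PLXNB1, a receptor for SEMA4D, was at 46.0 ± 7.26 and 43.7 ± 8.02 CPM, and PLXNA1 at 29.6 ± 6.89 and 29.4 ± 8.17 CPM.

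SEMA5A and SEMA6A, both membrane-bound semaphorins, were the 2 called among 15 tested of 20. That is 13.3%, near the 13.6% of all tested genes called in either direction. SEMA5A (chr5:9035026-9546075), which carries thrombospondin repeats beside its semaphorin domain, had 74.0, 88.0, 81.3 and 104.2 CPM in NPY1R high and 48.9, 53.1, 48.7 and 43.3 CPM in NPY1R low. The groups were separate, and the log2 change was 0.84 (SE 0.11, edgeR adjusted p 0.00058). SEMA6A (chr5:116443616-116574934) had 11.2, 11.0, 11.9 and 13.4 CPM in NPY1R high and 5.64, 5.25, 7.001 and 6.21 CPM in NPY1R low, a log2 change of 0.98 (SE 0.12, edgeR adjusted p 0.000502). Its exons overlap the antisense gene SEMA6A-AS1, which was at 0.183 ± 0.0824 and 0.0987 ± 0.149 CPM (SD, n = 4 each). The kit was stranded, but whether the counting used strand is not given in the sources used here.

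SEMA3C, a secreted class 3 semaphorin, was the most abundant guidance gene, both by CPM and per kilobase of transcript. It had 247.7, 264.9, 228.0 and 199.4 CPM in NPY1R high and 216.2, 236.3, 194.0 and 213.6 CPM in NPY1R low. Those ranges overlapped, and the 95% interval of the log2 change was -0.07 to 0.33 (edgeR adjusted p 0.434). Of the 4 tested class 3 semaphorins and the 6 tested class 4 semaphorins, 0 passed the threshold by edgeR, DESeq2 or limma. An unadjusted edgeR p under 0.05 was found for 1 of class 3 (SEMA3E) and 2 of class 4 (SEMA4B and SEMA4F). As edgeR called 13.6% of all tested genes in either direction, 0 calls in sets this small are near that share. SEMA3E was at 15.9 ± 2.05 and 19.9 ± 1.303 CPM (log2 -0.32, edgeR adjusted p 0.0783). SEMA4B was at 10.8 ± 1.00 and 14.5 ± 2.98 CPM (log2 -0.43, edgeR adjusted p 0.107). SEMA4D was at 16.02 ± 2.27 and 15.9 ± 1.52 CPM.

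NTN4, a netrin that binds laminin in basement membranes, rose. It lies at chr12:95657807-95791152 and had 1.79, 1.71, 2.97 and 2.70 CPM in NPY1R high against 0.470, 1.23, 0.595 and 0.589 CPM in NPY1R low. NPY1R low replicate 2 was the highest of its group and still below every NPY1R high library, and the log2 change was 1.65 (SE 0.33, edgeR adjusted p 0.00799). NTN1, the classical ligand of DCC and UNC5 receptors, was at 12.4 ± 1.35 and 11.0 ± 1.11 CPM (log2 0.17, 95% interval -0.09 to 0.42). NTN3, NTN5, NTNG1 and NTNG2 were too low to test.

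UNC5A, a dependence receptor for netrin, fell. It lies at chr5:176810477-176880898 and had 11, 2, 7 and 4 counts in NPY1R high against 39, 18, 19 and 15 in NPY1R low. Its CPM did not overlap between the groups, with a log2 change of -1.84 (SE 0.43, edgeR adjusted p 0.019). The call was lost without NPY1R high replicate 3 or 4 or NPY1R low replicate 1 (edgeR adjusted p 0.0519 to 0.0612). UNC5A shares exon sequence on the opposite strand with HK3, which was at 0 CPM in every NPY1R high library and at 0.0545 ± 0.0873 CPM in NPY1R low. UNC5B was at 1.54 ± 0.688 and 2.75 ± 0.471 CPM (log2 -0.83, edgeR adjusted p 0.0875) and did not pass. NEO1, a receptor of netrins and of RGM proteins, was the most abundant netrin receptor, with 92.8, 95.7, 76.3 and 88.2 CPM in NPY1R high and 88.2, 91.4, 87.0 and 83.7 CPM in NPY1R low. These values overlapped, and the 95% interval of its log2 change was narrow, from -0.15 to 0.17. DCC had 7 counts over the 8 libraries.

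**Figure D2:**
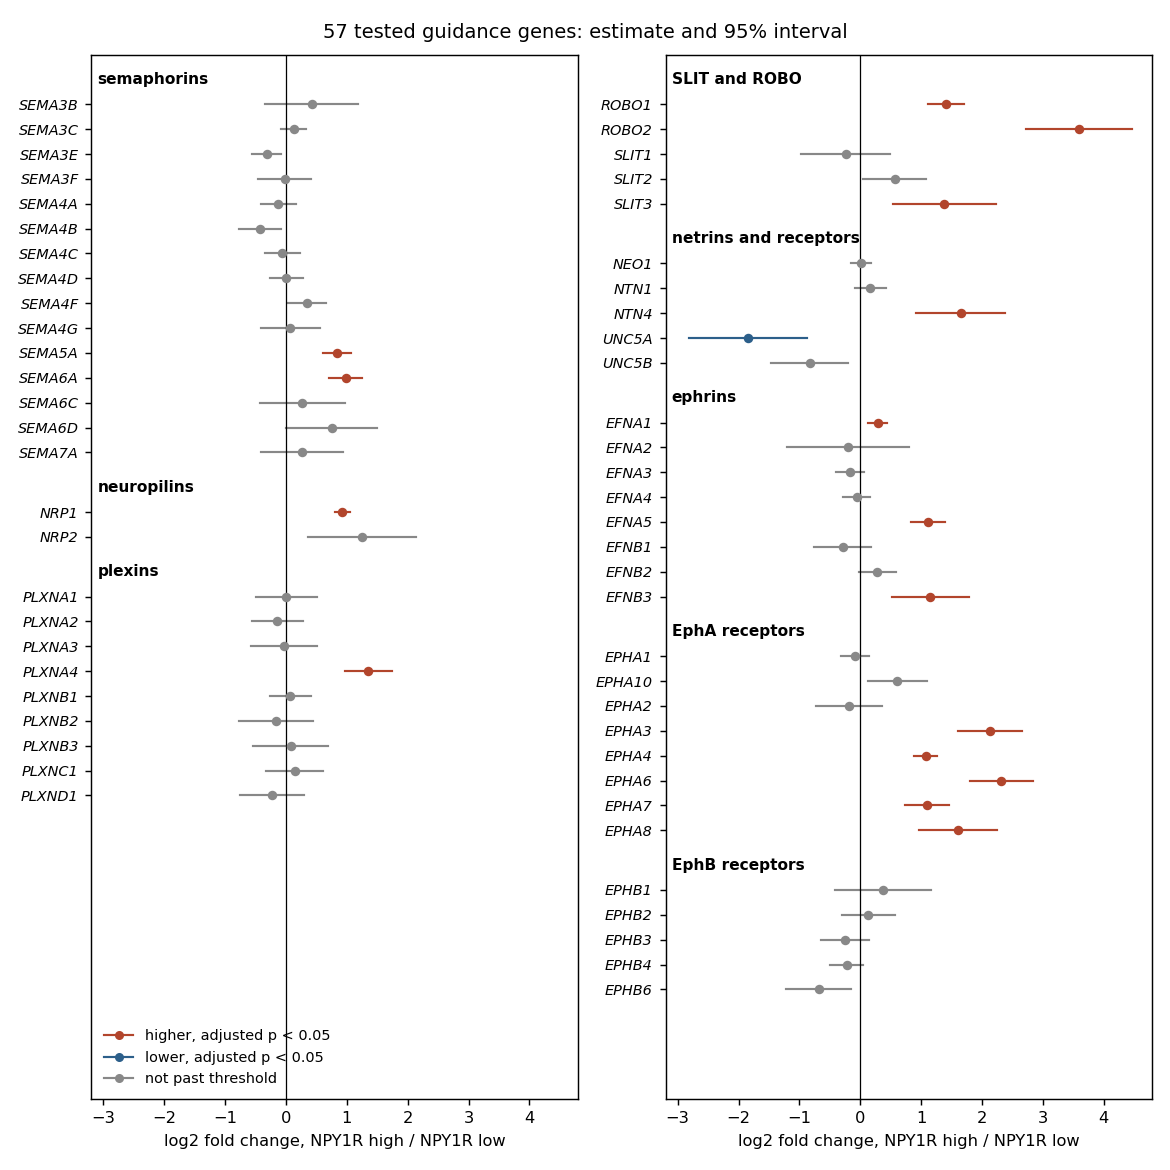
Log2 fold change of NPY1R high over NPY1R low for the 57 tested guidance genes, by family, with the 95% interval as a line. The 16 genes past the threshold as higher stand right of 0, and UNC5A stands left of it. Among the former are 5 of the 8 EphA receptors, of which EPHA8 entered the test through the NPY1R high libraries alone. The 5 EphB receptors are not past the threshold. Of all tested genes 13.6% were past it in either direction, and 0 of 5 is near that share.

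Of the 8 families, the member with the highest CPM passed the threshold in 3 (EPHA4, NRP1 and ROBO1) and did not pass in 5 (SEMA3C, PLXNB2, NEO1, EFNB2 and EPHB4). Over all tested genes 13.6% passed in either direction. Each member's mean CPM over all 8 libraries had a median of 5.81 for the 16 members that rose and 11.2 for the 40 tested members that did not pass. Of those 40, 20 had a positive and 20 a negative estimate, 31 had a 95% interval within a 2-fold change in either direction, and 9 had an unadjusted p under 0.05.

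Differences were also read within replicates 1 and 2 and within replicates 3 and 4, a division of libraries seen in these data and not given by the labels. The direction is fixed for the 17 called members, whose groups do not overlap, so that only sizes are given. ROBO2 differed by 3.06 on the log2 CPM scale within the former and 3.67 within the latter, and NRP1 by 0.85 and 1.00. NTN4 was the least even, at 1.11 and 2.12.

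Transcript GC content was lower at the median in the members that rose than in those that did not pass, with exceptions such as EPHA8 at 63.8%. Their annotated transcripts (GENCODE 29) had a median of 46.5% GC, with 11 of 16 under 50%, while the 40 tested members that did not pass had a median of 60.2%, with 6 of 40 under 50%. All tested genes had a median of 48.6%, and all genes called higher one of 45.6%. Of the 17 tested members under 50% GC, 11 rose, against 7.71% of all tested genes under 50% GC. Of the 40 at 50% or more, 5 rose, against 3.84% of all such genes. The 17 calls stayed past the threshold under the GC correction, and ROBO2 had the highest change among the members in that fit too. The part of GC content in which members rose was not tested.

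**Figure D3:**
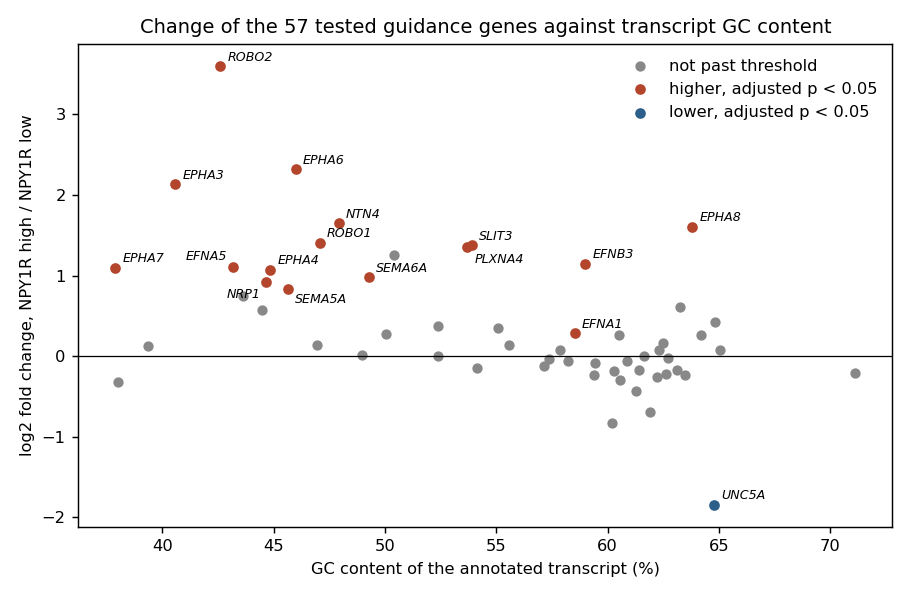
Log2 fold change of the 57 tested guidance genes (NPY1R high over NPY1R low) against the GC content of the annotated transcript in percent, with 1 point per gene. Most genes that rose lie under 50% GC, and EPHA8, EFNB3 and EFNA1 are the risers furthest to the right.

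Chromosome positions were also compared, after the values were seen. ROBO2, ROBO1, EPHA3 and EPHA6 all lie in 1 stretch of 21.8 megabases on chromosome 3 (chr3:75906695-97752460), and all 4 rose. The stretch held 13 tested genes, and the 9 that are not guidance genes included 0 past the threshold in either direction, with a median log2 change of -0.10. With 13.6% of all tested genes called, 0 of 9 is near that share, and whether the rise is regional was not tested. CRYBG3, which is no guidance gene and lies within 1 megabase of EPHA6 outside the stretch, was called higher. The other 7 tested members on chromosome 3 did not pass. The cell adhesion gene CADM2, which lies between ROBO1 and EPHA3, had the highest change of the 9 other genes in the stretch, 0.80 (edgeR adjusted p 0.065). GBE1, CHMP2B, CGGBP1, ZNF654, C3orf38 and NSUN3 had log2 changes from -0.16 to 0.03. On chromosome 5, all 5 tested members were called, SEMA5A, EFNA5, SEMA6A and SLIT3 as higher and UNC5A as lower. They are spread over the chromosome. Of 47 tested neighbours within 1 megabase of these genes, 28 of them beside UNC5A, 2 rose and 4 fell, near the shares over all genes. FBXL17 beside EFNA5 and LINC00992 beside SEMA6A rose, and CCT5 beside SEMA5A, FEM1C and TMED7 beside SEMA6A and SPDL1 beside SLIT3 fell.

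**Figure D4:**
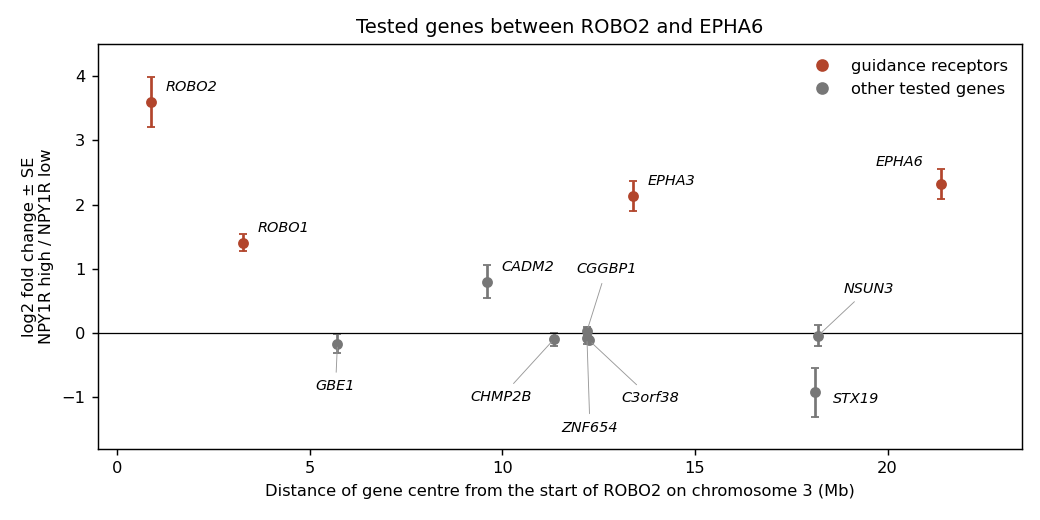
Log2 fold change with its SE for 12 of the 13 tested genes between ROBO2 and EPHA6 on chromosome 3, placed by distance from the start of ROBO2 in megabases. The 4 guidance receptors lie above 1, and the 8 other genes shown lie between -0.92 and 0.80.

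Genes that work with guidance receptors were read from 2 lists. Of co-receptors and matrix cofactors, 24 of 37 were tested, 4 rose and 2 fell, with a median log2 change of 0.04, where 5.78% and 7.81% of all tested genes did, and the share that fell is near that of all genes. DSCAM, a netrin receptor of the immunoglobulin family, averaged 3.38 ± 0.631 CPM against 0.208 ± 0.0354 CPM, a log2 change of 4.00 (SE 0.24, edgeR adjusted p 6.78e-06). DSCAM had 7, 6, 5 and 4 counts in NPY1R low, under the filter level of about 0.374 CPM. It thus entered the test through the NPY1R high libraries alone. Its antisense gene DSCAM-AS1, a long non-coding RNA of luminal breast cancer cells, was at 41.7 ± 2.29 and 4.71 ± 0.539 CPM, and the annotated exons of DSCAM and DSCAM-AS1, on opposite strands, share 0 bases. FLRT3, which binds ROBO1 and UNC5 receptors, was at 15.3 ± 1.08 and 5.92 ± 1.23 CPM (log2 1.36, SE 0.15). PLXDC2 rose by 1.31 and NRCAM by 0.28. VEGFA, a ligand of NRP1, had a log2 change of -0.72 (SE 0.13) and CNTN1 of -0.47 (SE 0.12).

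Below the receptors, 75 of 80 listed signalling genes were tested, 10 rose and 7 fell, with a median of -0.06. Over all tested genes 5.78% rose and 7.81% fell, and the fallers of this list are near that share. Most of these changes were under 2-fold. GRB10, an adaptor that binds Eph receptors, rose by a log2 of 0.49 (SE 0.05), DPYSL2, the semaphorin mediator CRMP2, by 0.64 (SE 0.09), CHN1, a RAC inhibitor below EPHA4, by 0.48 (SE 0.08) and the kinase FYN by 1.66 (SE 0.30). MYO10 had a log2 change of -0.44 (SE 0.06) and SRGAP2, which binds ROBO receptors, of -0.59 (SE 0.08). ENAH, an actin regulator below ROBO and netrin receptors, was at -0.36 (SE 0.06) and GRB7 at -0.51 (SE 0.08). EVL, also in this list, rose by 0.48 (SE 0.09). DPYSL3, of the same family as DPYSL2, moved the other way, from 13.2 ± 1.24 CPM in NPY1R low to 7.17 ± 1.38 CPM in NPY1R high.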

How the data were processed

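The authors deposited expected counts per gene symbol, unscaled, for 8 libraries. The submitters' processing notes name STAR 2.5.2, RSEM 1.3.0 and hg38, and the annotation is not given in the sources used here. The per-sample tables held the same values (0 differed). Counts were rounded, filtered with edgeR 4.0.16 filterByExpr (minimum count 10), scaled by TMM and tested with edgeR's quasi-likelihood test (R 4.3.3), without covariates. P-values were adjusted by Benjamini-Hochberg over all 14008 genes, with a threshold of 0.05. The SE was taken from the F statistic, and log2 CPM used a prior count of 2. Alternatives included limma 3.58.1 and DESeq2 1.42.0. The fit was checked on simulated counts. Transcript length, GC content and coordinates came from GENCODE 29 (GRCh38, the build named hg38), using 1 transcript per gene, and 94.1% of tested genes had a GC value. Limits set by counts cover counting error only. The members, lists and some alternatives were chosen with earlier results of these data known. Named were all members past the threshold, the most abundant tested member of each family, and up to 5 listed genes per direction. Others were chosen after their values were seen. A marker gene and a gene of the chromosome 3 stretch are not reported here.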

Additional observations from a re-analysis of the deposited data

Results flagged for a closer look

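The 57 tested members and NPY1R were checked for a library far from the other 3 of its group, which made 116 group values. For 2 of them the gap to the nearest library, as a share of the range on the log2 CPM scale, passed 0.829, which is Dixon's 95% limit for 4 samples, and chance gives 5.8. EFNA2 in NPY1R low replicate 3 was at 0.137 CPM, against 0.385 to 0.436 CPM in the rest of its group, a share of 0.88. PLXNC1 in NPY1R low replicate 1 was at 1.64 CPM, where the others had 1.10 to 1.14 CPM, a share of 0.91. Neither gene passed the threshold in the comparison of the groups.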

How the results depend on the processing

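Each result was recomputed under 22 alternative fits and, for the counts of members, a threshold of 0.01. The fits with a GC offset were added after the data were seen. The rise of NPY1R stayed past the threshold in all 22. All 17 called members kept their direction wherever they were tested. Their groups do not overlap in CPM, so leaving out a library could not reverse it, and the kept direction is no support. Calls were lost only in fits that left out a library, for EFNA1, EFNB3, SLIT3 and UNC5A. Members higher numbered 16 in the fit reported and 12 to 22 over the alternatives. Members lower, 1 in that fit, numbered 0 at 10 counts in every library and 0 at 1 CPM in 4 libraries, where UNC5A was not tested, 0 at a threshold of 0.01, 2 with the replicate block, 5 with the term for replicates 1 and 2 against 3 and 4, 6 with the GC offset, 7 with the GC offset and the replicate block, and 7 with the GC offset and that term. Omitting 1 library at a time gave 0 to 4. Over these settings 3.36% to 11.8% of all genes were called higher and 4.01% to 17.8% lower. The 4 without NPY1R low replicate 4 were UNC5A, EPHB4, EPHB6 and SEMA4B. NEO1, near 0 in the fit reported, changed sign with the GC offset (-0.0022), with the offset and block (-0.0056) and with the offset and term (-0.0050). Leaving out libraries gave NEO1 -0.030 to 0.10 and PLXNB2 -0.33 to 0.038. The causes were not tested. Deviations of same-numbered libraries correlated at 0.339, 0.157, 0.0907 and 0.0178. Libraries of unlike number reached 0.501 (NPY1R high replicate 3 with NPY1R low replicate 4) and -0.475 (NPY1R high replicate 1 with NPY1R low replicate 4). Same-numbered libraries were thus not the closest throughout, and the fit reported did not pair them. With the replicate block, all 17 calls stayed and EFNB2, NRP2 and UNC5B were added.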
